A study of Mus musculus with 47 samples.

Results

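The genes examined here are 37 genes of the glutathione, thioredoxin and antioxidant enzyme systems, measured by RNA-seq in brainstem and hippocampus of transgenic mice and of wild-type mice, each on a standard or a high-fat diet. The members were a list of symbols in 7 role groups. All 37 were matched by Ensembl identifier in both count tables, which together hold 35032 genes. The rule uses no measured value.

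Glutathione is a small thiol that donates electrons to peroxidases and is conjugated to reactive compounds by transferases, while the thioredoxin system does the parallel work for peroxiredoxins and other thiol proteins. Superoxide dismutases turn superoxide into hydrogen peroxide, and catalase, glutathione peroxidases and peroxiredoxins remove the peroxide. Many of these genes are known targets of the transcription factor Nrf2 (Nfe2l2), which Keap1 holds in check, and in brain much of the Nrf2 activity is known to lie in glia.

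The animals were male mice of strain C57BL/6, killed at a year of age after feeding from weaning on a standard diet (SD) or a high-fat diet (HFD). Transgenic mice (TG) came from a homozygous colony. In it the Thy1 promoter, active in neurons of the central nervous system, drives the transgene, human alpha-synuclein with the A30P mutation. Wild-type mice (WT) came from a parallel colony of the same outcross, so that genotype and colony cannot be told apart. Each of the 4 groups (WT_SD, WT_HFD, TG_SD, TG_HFD) had 6 libraries per region, except brainstem WT_SD with 5, and the labels do not tie a brainstem to a hippocampus library of the same mouse. All libraries were poly(A)-selected and sequenced single-end.

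Library totals were 10020784 to 15078812 counts in the 23 brainstem libraries and 11945971 to 17328447 in the 24 hippocampus libraries. Levels are given as CPM, counts scaled to library size. The summed CPM of 5 hindbrain markers, 4 Hox genes and Slc6a5, was 290.8 to 514 in brainstem. In hippocampus it was at most 0.513, and all 4 Hox genes were at 0 there. The hippocampal marker sum was 578 to 802 in hippocampus against 78.8 to 136 in brainstem. Some brainstem libraries stood apart, 11 with a choroid plexus marker sum of at least 500 CPM and 2 with an erythroid sum of at least 3000 CPM.

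The first question was how the members are expressed in the regions. Per length of merged exons, Gpx4 led in brainstem with 146 ± 24.4 RPKM (CPM divided by merged exon length in kilobases, SD, n = 23). This peroxidase, which reduces lipid hydroperoxides in membranes, stood at 103.9 ± 13.5 RPKM in hippocampus (n = 24). Gstm1, a cytosolic mu-class glutathione transferase, led in hippocampus with 127 ± 16.0 RPKM and reached 122 ± 12.9 RPKM in brainstem. Gstm5, of the same class, followed with 100.4 ± 9.38 RPKM in brainstem and 108 ± 10.3 RPKM in hippocampus. The spreads of Gpx4 and Gstm1 overlapped in both regions, and those of Gstm5 and Gpx4 overlapped in hippocampus. Merged exons exceeded the longest transcript unevenly, with 1724 against 995 bases for Gpx4 and 1473 against 1289 for Gstm1. They measured 1278 against 1083 bases for Gstm5 and 1548 against 821 for Gstp1. The order of the members by RPKM therefore depends on the length used. At the other end of the brainstem order, Txnrd2, the mitochondrial thioredoxin reductase, had 2.20 ± 0.30 RPKM, below Gss at 3.18 and Hmox1 at 3.38 RPKM. In hippocampus the lowest member was Gpx3, the secreted plasma-type glutathione peroxidase, with 1.59 ± 0.25 RPKM, below Sod3 at 2.01 and Gss at 2.21 RPKM. Gpx3 was thus last of 37 in hippocampus, yet 20th in brainstem. Mu-class transferases, Gstp1 and several peroxiredoxins have close paralogs or processed pseudogenes, and how the authors' counting shared reads among copies was not stated, so levels of these members are uncertain.

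**Figure D1:**
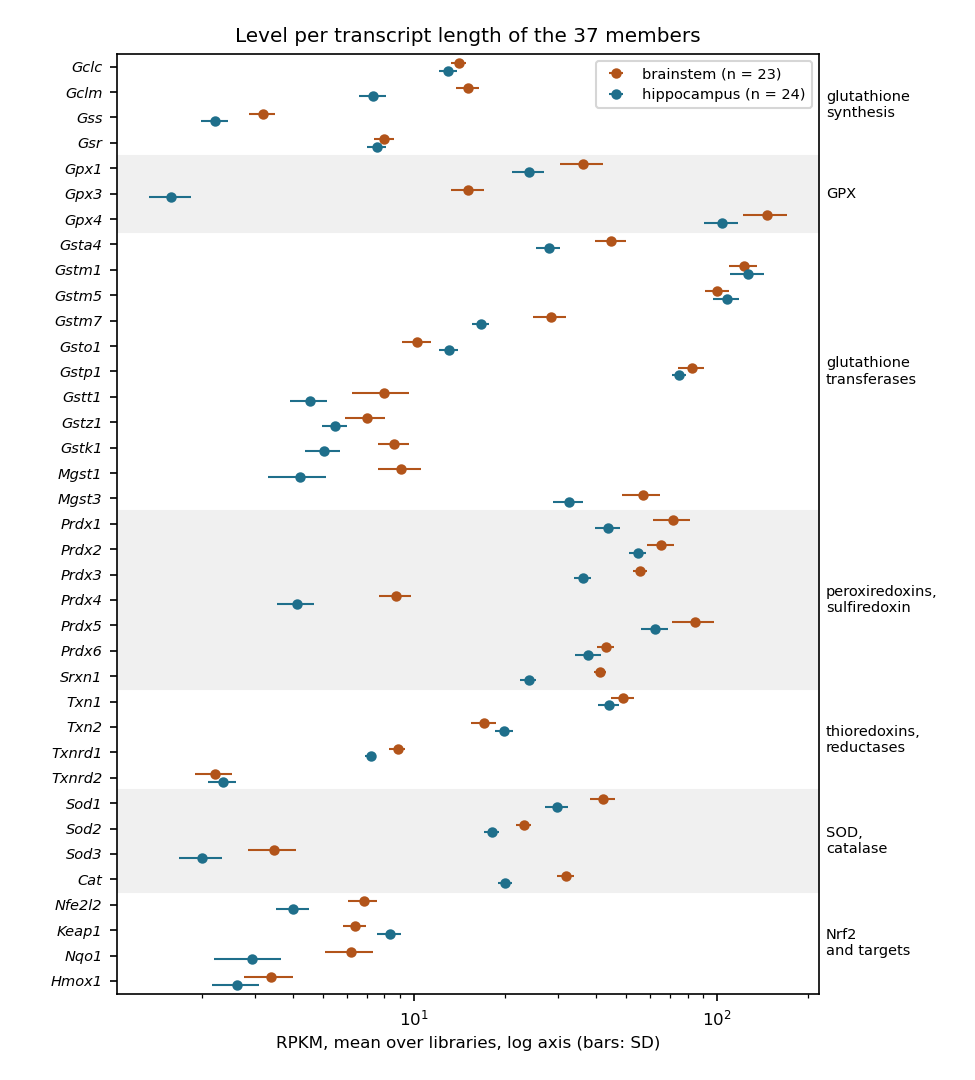
Mean RPKM (log axis, error bars SD over 23 brainstem and 24 hippocampus libraries) of the 37 members, ordered by role. By merged exon length, Gpx4, Gstm1 and Gstm5 are the 3 highest in both regions, and Gpx3 shows the widest gap between the regions.

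The regions differed in most members, and nearly always in one direction. Of the 37 members, 31 had a lower level in hippocampus than in brainstem, against 51.6% of all 13462 genes tested. A call required an adjusted p of at most 0.05 (edgeR quasi-likelihood test) and a log2 fold change of at least 0.3 in size. By this rule 27 members differed, with 60.2% of all genes called. Of these, 25 members were lower in hippocampus, where 31% of all genes were called lower, and 2 were higher, where 29.2% of all genes were called higher. The median log2 fold change of hippocampus over brainstem was -0.50 for the members and -0.02 for all genes. Called lower by at least 2-fold were 5 members, with 8.88% of all genes called so, and no member was higher by that much, with 9.57% of all genes called so. Among the 5 is Gpx3, which passed the count filter only through its brainstem level. In tissue libraries such as these, fewer cells of a type and less RNA per cell cannot be told apart.

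In 13 members no hippocampus library reached the lowest brainstem library, whereas 17.2% of all genes lay apart in this direction, and no member lay apart in the other direction, which 17.8% of all genes did. These were Gclm, Gpx3 (tested only through its brainstem level), Gsta4, Gstm7, Mgst1, Mgst3, Prdx1, Prdx3, Prdx4, Srxn1, Sod1, Cat and Nqo1. The regional difference was also fitted within each of the 4 groups. The same 31 members had a lower hippocampal value in all 4 groups, and 22 members were called lower in all 4 groups (30.6%, 31.6%, 31.6% and 30.3% of all genes called lower in WT_SD, WT_HFD, TG_SD and TG_HFD). Gsto1 and Keap1 were called higher in all 4, where 28.9%, 29.9%, 29.3% and 28.3% of all genes were called higher. These percentages are for each group alone. The shares of all genes called in all 4 groups at once can be no larger and are not given here.

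**Figure D2:**
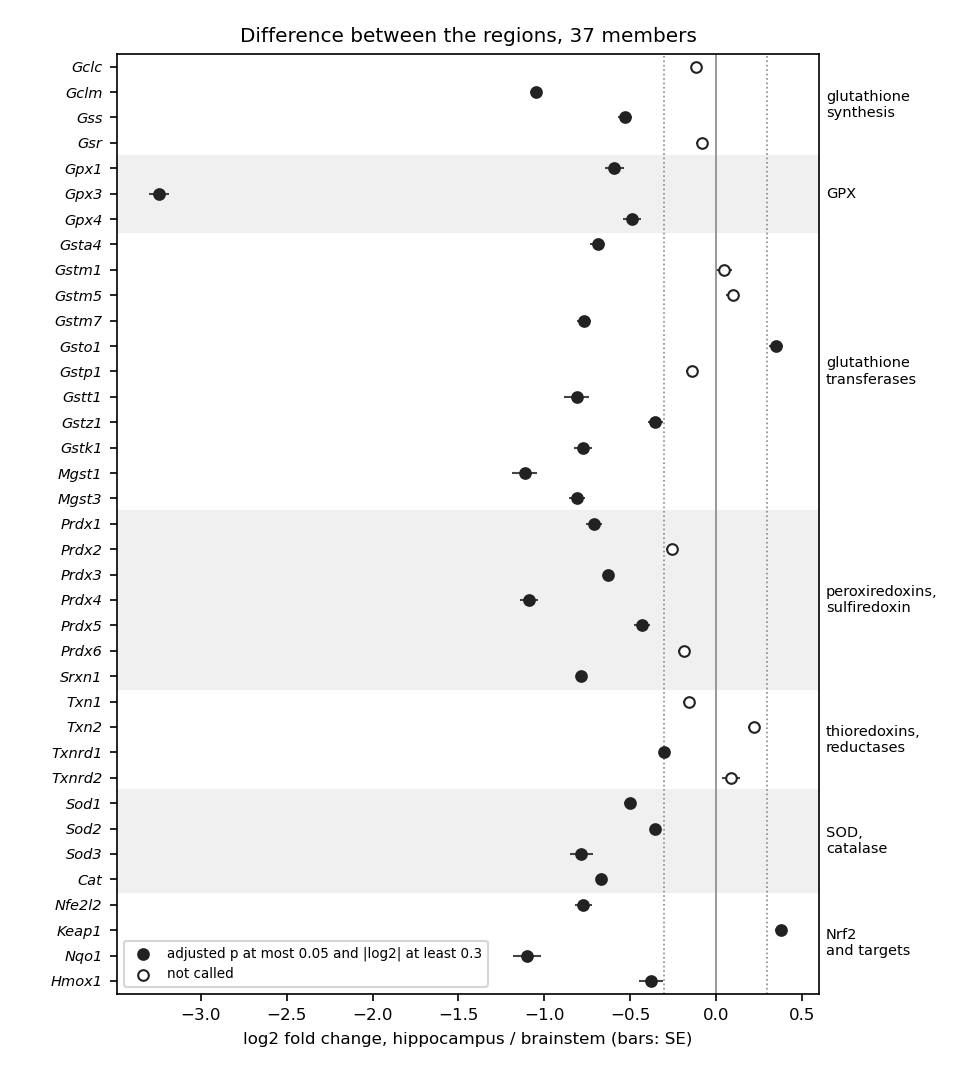
Log2 fold change of hippocampus over brainstem for the 37 members (points, bars SE), ordered by role, with the call thresholds as lines. The 25 members called lower spread over all 7 roles, and Gpx3, tested only through its brainstem level, lies far beyond the others at -3.24.

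The regions also differed in their cell type markers, which bears on each of these values. Beside the marker counts below, 31% of all genes were called lower and 29.2% higher in hippocampus. All 8 oligodendrocyte markers were called lower in hippocampus, and their summed CPM was 3047 to 4725 there against 12603 to 21013 in brainstem. All 5 erythroid markers were called lower (sum 167 to 571 CPM against 597 to 3343), as were 5 of 6 endothelial markers (180 to 259 against 339 to 428). The astrocyte sum was higher in hippocampus (4070 to 5136 against 2766 to 3633 CPM), although 5 of its 8 markers were called lower and 2 higher. The neuronal sum was higher in hippocampus (5620 to 6578 against 4501 to 5113 CPM), with 4 of its 8 markers called higher and 4 lower. All 4 markers of oligodendrocyte precursors were called higher (262 to 326 against 154 to 186 CPM). Microglial sums overlapped (320 to 425 against 261 to 454 CPM), with 4 of 8 markers called higher, and so did the choroid plexus, ependymal and meningeal sums. None of these cell type markers was at 0 in a region, and their part in the members' regional difference was not tested. Without the 11 brainstem libraries rich in choroid plexus markers 26 members were called, and without the 2 libraries rich in erythroid markers 27. The shares of all genes called in these refits are not given here.

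Among the 4 genes of glutathione synthesis and reduction, 2 were called lower in hippocampus (median log2 fold change -0.32). Gclm encodes the modifier subunit of glutamate-cysteine ligase, the rate-limiting enzyme of glutathione synthesis. It lay between 73.3 and 111 CPM in brainstem (median 95.2) and between 39.4 and 60.3 CPM in hippocampus (median 46.1), with no overlap. The log2 fold change was -1.05 ± 0.04 (SE, adjusted p = 8.01e-31), whereas that of Gclc, the catalytic subunit, was -0.12 ± 0.03, below the fold required for a call. The pair that forms the ligase thus differed unequally between the regions. In brainstem Gclm averaged 97.5 ± 4.76 CPM in WT_SD, 87.6 ± 9.04 in WT_HFD, 99.6 ± 7.14 in TG_SD and 96.3 ± 7.36 in TG_HFD (SD, n = 5, 6, 6 and 6, the order kept in all lists of group means that follow). In hippocampus it averaged 46.2 ± 4.12, 42.8 ± 3.26, 49.0 ± 6.33 and 46.6 ± 3.26 CPM (n = 6 in every group). Gss, glutathione synthetase, fell from brainstem to hippocampus by 0.53 on the log2 scale (adjusted p = 4.45e-17). Its group means were 19.0 ± 0.951, 20.2 ± 2.03, 18.3 ± 1.79 and 17.7 ± 1.63 CPM in brainstem. In hippocampus they were 14.1 ± 0.447, 13.1 ± 1.27, 13.01 ± 1.66 and 12.1 ± 1.024 CPM. Gsr, which regenerates reduced glutathione, had a log2 fold change of -0.08 (adjusted p = 0.0199) and was not called.

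All 3 glutathione peroxidases were called lower in hippocampus. Gpx3 spanned 18.9 to 33.2 CPM in brainstem (median 28.4) and 2.10 to 3.75 CPM in hippocampus (median 2.90). The regions were far apart, with a log2 fold change of -3.24 ± 0.06, or 9.47-fold (adjusted p = 2.27e-42). Its mean count was 349 in brainstem and 41.2 in hippocampus, where the filter asked for 50. Gpx3 thus passed the filter only through its brainstem level, so a lower hippocampal level, though not its size, was built into its being tested. It was not tested within hippocampus. Its group means were 25.8 ± 0.897, 29.9 ± 1.99, 26.1 ± 4.10 and 27.7 ± 4.43 CPM in brainstem. The hippocampal means were 2.88 ± 0.507, 3.01 ± 0.427, 2.77 ± 0.438 and 2.85 ± 0.522 CPM. Gpx1, the main cytosolic peroxidase, and Gpx4 had log2 fold changes of -0.59 and -0.49. Gpx4 means were 253 ± 26.9, 291 ± 57.5, 241 ± 15.7 and 221 ± 24.0 CPM in brainstem. In hippocampus they were 183 ± 18.7, 196 ± 23.1, 171 ± 28.9 and 167 ± 12.1 CPM.

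**Figure D3:**
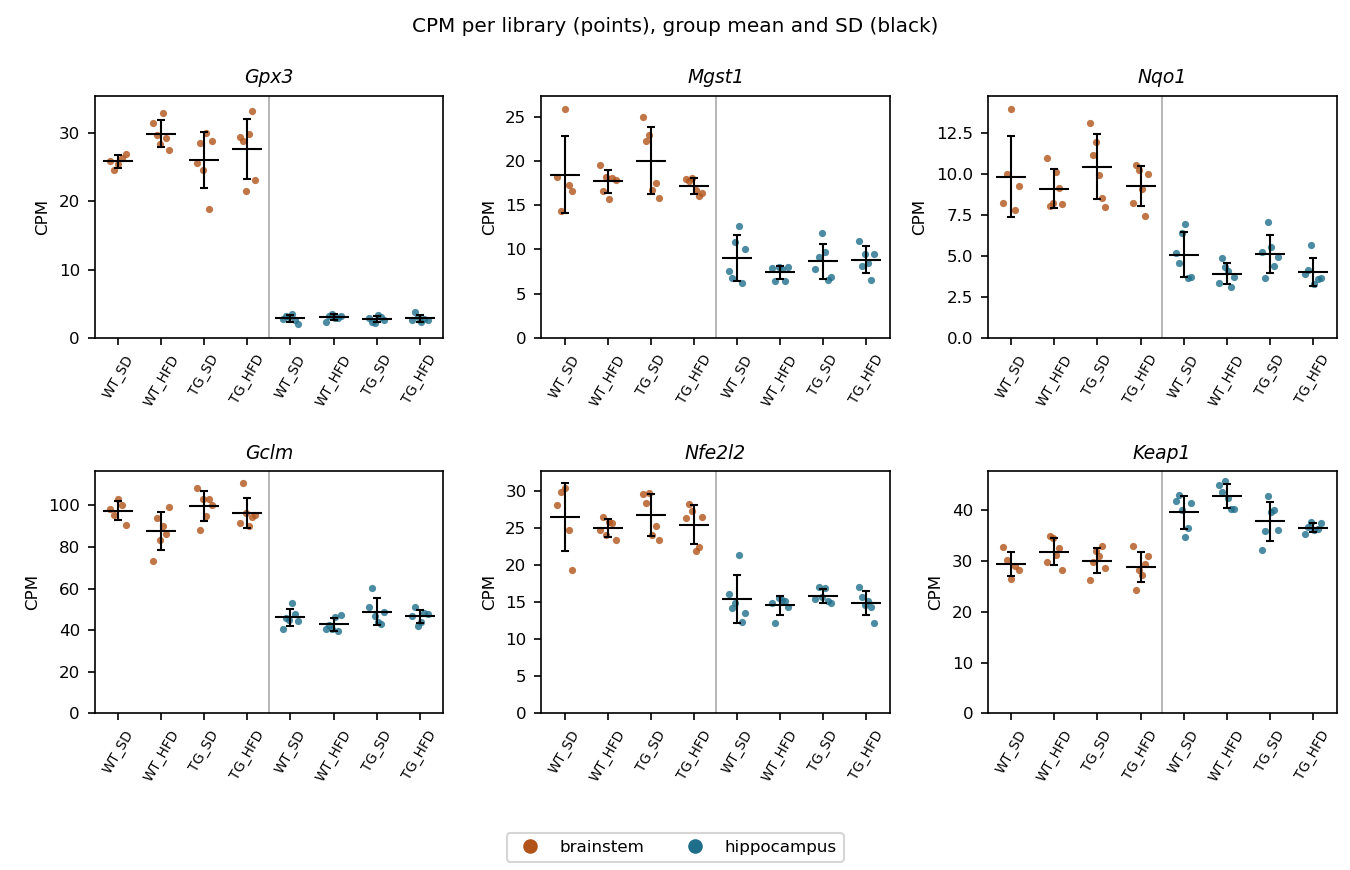
CPM of Gpx3, Mgst1, Nqo1, Gclm, Nfe2l2 and Keap1 in every library (points; bars are group means) by region and group. For Gpx3, Mgst1, Nqo1 and Gclm every hippocampus library lies under every brainstem library, while the regions overlap for Nfe2l2 and Keap1.

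Of the 11 glutathione transferases, 7 were called lower in hippocampus and 1 higher (median -0.69). The microsomal enzyme Mgst1, a membrane-bound transferase with peroxidase activity, spanned 14.3 to 25.9 CPM in brainstem (median 17.7) and 6.18 to 12.7 CPM in hippocampus (median 7.98). The libraries did not overlap, and the fold was 2.16 (log2 fold change -1.11 ± 0.07, adjusted p = 1.89e-19). Mgst1 means were 18.5 ± 4.38, 17.7 ± 1.35, 20.03 ± 3.82 and 17.2 ± 0.866 CPM in brainstem. In hippocampus the means were 9.04 ± 2.57, 7.42 ± 0.763, 8.65 ± 2.001 and 8.86 ± 1.48 CPM. Mgst3 (-0.81), Gstt1 (-0.81), the mitochondrial and peroxisomal enzyme Gstk1 (-0.77), Gstm7 (-0.77), Gsta4 (-0.69), which acts on the lipid peroxidation product hydroxynonenal, and Gstz1 (-0.35) made up the rest of those called lower. Gstt1, a theta-class enzyme, averaged 13.4 ± 4.61, 12.3 ± 1.30, 12.1 ± 1.79 and 10.9 ± 2.08 CPM in brainstem. Its hippocampal averages were 6.97 ± 0.951, 6.501 ± 1.04, 7.16 ± 1.07 and 7.15 ± 0.931 CPM.

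The omega-class enzyme Gsto1, which acts as a thiol transferase and reduces dehydroascorbate, went the other way. It spanned 15.8 to 24.3 CPM in brainstem (median 20.6) and 21.9 to 29.8 CPM in hippocampus (median 26.5), and its log2 fold change was 0.35 ± 0.04 (adjusted p = 5.55e-11) although the libraries overlapped. Gsto1 means were 20.3 ± 2.61, 20.5 ± 0.774, 20.7 ± 2.51 and 21.3 ± 3.10 CPM in brainstem. Hippocampal means were 26.1 ± 1.90, 27.3 ± 1.56, 26.2 ± 1.20 and 26.4 ± 2.80 CPM. The mu-class pair that led the transferases in level was not called, with log2 fold changes of 0.05 (adjusted p = 0.356) for Gstm1 and 0.10 (adjusted p = 0.0179) for Gstm5. Gstm1 turned to a lower hippocampal value, -0.02, with a correction for GC content and likewise without the choroid-rich libraries. Gstm1 means were 185 ± 31.5, 185 ± 14.5, 179 ± 14.4 and 172 ± 15.9 CPM in brainstem. They were 192 ± 33.8, 187 ± 12.1, 187 ± 29.6 and 179 ± 16.7 CPM in hippocampus. Gstm7, of the same class, was called lower in hippocampus. Gstm5 means were 129 ± 15.5, 129 ± 10.8, 131 ± 11.8 and 124 ± 12.2 CPM in brainstem, and 140.2 ± 11.6, 129 ± 7.15, 142 ± 16.4 and 139.6 ± 14.6 CPM in hippocampus. Gstp1, the pi-class enzyme, had a log2 fold change of -0.14 and was not called. It averaged 123 ± 9.70, 133 ± 13.2, 130.3 ± 10.3 and 123 ± 15.8 CPM in brainstem, and 117 ± 6.98, 115 ± 5.90, 117 ± 9.33 and 116 ± 3.08 CPM in hippocampus.

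Of the 6 peroxiredoxins and sulfiredoxin, 5 of 7 were called lower in hippocampus (median -0.63). Prdx4, the peroxiredoxin of the endoplasmic reticulum, spanned 14.9 to 23.05 CPM in brainstem (median 18.1) and 5.94 to 10.9 CPM in hippocampus (median 8.67). It lay apart in the regions by 2.13-fold (log2 fold change -1.09 ± 0.05, adjusted p = 5.68e-24). Prdx4 means were 18.4 ± 3.01, 17.9 ± 2.47, 19.7 ± 1.37 and 17.6 ± 1.54 CPM in brainstem, and 8.76 ± 1.26, 8.50 ± 0.935, 8.19 ± 1.61 and 9.16 ± 1.013 CPM in hippocampus. Srxn1, sulfiredoxin, which restores overoxidised peroxiredoxins, spanned 107 to 125 CPM in brainstem (median 117) and 57.9 to 75.8 CPM in hippocampus (median 67.2). Its log2 fold change of -0.79 ± 0.02 (adjusted p = 1.72e-33) had the smallest standard error among the 37 members. Cytosolic Prdx1 (-0.71), mitochondrial Prdx3 (-0.63) and Prdx5 (-0.43) were called lower too. Prdx3 means were 82.6 ± 6.37, 83.3 ± 4.82, 83.6 ± 4.45 and 80.5 ± 3.59 CPM in brainstem, and 56.0 ± 3.54, 52.2 ± 2.93, 52.2 ± 3.86 and 53.3 ± 2.80 CPM in hippocampus. Prdx2, a cytosolic enzyme abundant in neurons, and Prdx6, which uses glutathione in place of thioredoxin, had smaller differences of -0.26 and -0.19 and were not called. Prdx2 means were 199 ± 22.2, 209.7 ± 22.8, 205 ± 14.5 and 184 ± 12.4 CPM in brainstem, and 167 ± 9.27, 167 ± 9.67, 164 ± 16.97 and 170.4 ± 9.68 CPM in hippocampus. Prdx6 means were 201 ± 16.2, 201 ± 8.71, 215 ± 13.9 and 207 ± 10.4 CPM in brainstem, and 181 ± 26.2, 180.1 ± 8.36, 186 ± 21.0 and 177 ± 13.1 CPM in hippocampus.

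The thioredoxins and their reductases had smaller regional differences (median -0.03), with 1 of 4 called lower. The called member, cytosolic Txnrd1, had a log2 fold change of -0.30 that sat on the threshold, and 19 of the 47 libraries ended its call when left out singly. Cytosolic Txn1 had a log2 fold change of -0.16, and mitochondrial Txn2 had one of 0.22 (adjusted p = 3.33e-08), neither large enough for a call. Txn2 means were 70.4 ± 3.16, 77.4 ± 6.71, 71.5 ± 6.29 and 67.2 ± 7.13 CPM in brainstem, and 83.4 ± 5.90, 84.3 ± 2.77, 83.1 ± 8.85 and 83.9 ± 4.86 CPM in hippocampus. Txnrd2, the partner of Txn2 in mitochondria, had a log2 fold change of 0.09 ± 0.05 (adjusted p = 0.102), which became -0.02 with the correction for GC content. Its means were 9.72 ± 1.68, 9.62 ± 0.970, 10.1 ± 1.19 and 9.34 ± 1.66 CPM in brainstem, and 10.4 ± 1.05, 9.54 ± 1.04, 10.3 ± 1.25 and 11.1 ± 0.590 CPM in hippocampus.

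All 4 superoxide dismutase and catalase genes were called lower in hippocampus (median -0.59). Cat, catalase of peroxisomes, spanned 74.9 to 94.4 CPM in brainstem (median 84.2) and 48.0 to 59.3 CPM in hippocampus (median 51.8). The libraries lay apart, with a log2 fold change of -0.67 ± 0.03 (adjusted p = 2.55e-28). Extracellular Sod3 (-0.78), cytosolic Sod1 (-0.50) and mitochondrial Sod2 (-0.35) followed. Cat means were 84.3 ± 3.52, 81.7 ± 3.40, 80.7 ± 6.90 and 85.0 ± 5.42 CPM in brainstem, and 52.7 ± 2.65, 51.6 ± 4.03, 53.2 ± 3.13 and 51.5 ± 1.63 CPM in hippocampus. Sod3 means were 12.4 ± 2.75, 14.6 ± 2.53, 12.9 ± 1.95 and 11.7 ± 1.29 CPM in brainstem, and 7.28 ± 1.07, 8.47 ± 1.38, 7.23 ± 1.30 and 7.05 ± 0.722 CPM in hippocampus.

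In the Nrf2 group the activator and its inhibitor differed in opposite directions. Nfe2l2 spanned 19.4 to 30.5 CPM in brainstem (median 25.8) and 12.2 to 21.4 CPM in hippocampus (median 15.2). Keap1 spanned 24.2 to 34.8 CPM in brainstem (median 29.8) and 32.1 to 45.6 CPM in hippocampus (median 39.8). Libraries of the regions overlapped for both genes. The log2 fold change was -0.77 ± 0.05 for Nfe2l2 (adjusted p = 1.20e-19) and 0.38 ± 0.03 for Keap1 (adjusted p = 2.45e-14), the latter reduced to 0.15, below the fold required for a call, with the correction for GC content. Keap1 means were 29.3 ± 2.35, 31.8 ± 2.63, 30.1 ± 2.44 and 28.8 ± 3.01 CPM in brainstem, and 39.5 ± 3.24, 42.8 ± 2.31, 37.8 ± 3.78 and 36.5 ± 0.868 CPM in hippocampus.

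The quinone reductase Nqo1, a common readout of Nrf2, spanned 7.44 to 13.9 CPM in brainstem (median 9.23) and 3.11 to 7.07 CPM in hippocampus (median 4.21). The libraries did not overlap, and the fold was 2.14 (log2 fold change -1.10 ± 0.08, adjusted p = 1.51e-17). Nqo1 means were 9.82 ± 2.44, 9.09 ± 1.20, 10.4 ± 1.99 and 9.24 ± 1.23 CPM in brainstem, and 5.07 ± 1.37, 3.90 ± 0.637, 5.13 ± 1.16 and 4.03 ± 0.844 CPM in hippocampus. Hmox1, heme oxygenase 1, had a log2 fold change of -0.38 (adjusted p = 3.26e-06). Hmox1 means were 6.52 ± 1.77, 5.78 ± 0.693, 5.47 ± 0.737 and 5.99 ± 0.980 CPM in brainstem, and 5.001 ± 0.886, 5.04 ± 0.604, 4.33 ± 0.669 and 3.97 ± 0.675 CPM in hippocampus.

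Because many members are known Nrf2 targets, their promoters were searched for the core of the antioxidant response element, TGACNNNGC, on either strand. RefSeq promoter windows of GRCm38.p6, 300 bases from 250 before to 50 after the transcript start, were at hand for 31 of the 37 members and not for Gclc, Gsr, Gsta4, Prdx6, Sod3 and Hmox1. The core was found in 9 of the 31 (29%) and in 14% of all 27025 genes with a window. The 9 matches are printed with flanks, 5′ to 3′, with the core in capitals, so that the letters behind this count can be read.
Gclm, chr3:122245412-122245441, minus strand: tcgtgagagtTGACGGTGCgcccgggagcg
Gstm5, chr3:107895802-107895831, plus strand: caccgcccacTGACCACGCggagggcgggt
Gstm7, chr3:107931724-107931753, minus strand: tctgaagaccTGACAAAGCgaagccaatcc
Mgst1, chr6:138140460-138140489, minus strand: ccccgcctccTGACCGTGCcaagccccgcc
Nfe2l2, chr2:75704884-75704913, minus strand: tcagcccaccTGACTCCGCcatgccccgga
Prdx1, chr4:116685455-116685484, minus strand: ctacgggggaTGACTCAGCgctttccctgg
Sod1, chr16:90220695-90220724, minus strand: ggcctgagtcTGACCACGCccaccttggca
Srxn1, chr2:152105541-152105570, minus strand: tgtctcactcTGACCTAGCtgcccactgcc
Txnrd1, chr10:82859103-82859132, minus strand: cgtgtcagaaTGACAAAGCaaaaatccagt

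Of the 9 members with the core, 8 were called lower in hippocampus and 0 higher, with a median log2 fold change of -0.77. The exception was Gstm5, and Txnrd1 at -0.30 sat on the fold threshold. Of the 22 members whose window lacked these letters, 14 were called lower and 2 higher, with a median of -0.46. Of all genes, with or without the core, 31% were called lower and 29.2% higher, and calls were not counted over all genes with the core. The shares were not tested against each other. A match describes the letters only, and Nqo1, a known Nrf2 target called lower in hippocampus, had no match in its window.

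The main question of the design was whether genotype and diet change expression within a region. Over the 10 within-region contrasts 1 member was called, and in 1 contrast only. This was Gstz1, maleylacetoacetate isomerase, a zeta-class transferase of tyrosine breakdown, in brainstem on the standard diet. In brainstem WT_SD the 5 libraries read 32.3, 37.8, 51.3, 37.6 and 37.6 CPM. In brainstem TG_SD the lowest of 6 libraries read 24.8, the median was 32.7 and the highest read 38.4 CPM. The groups overlapped, and the WT_SD library at 51.3 CPM, replicate 6, stood above the others. The log2 fold change of TG over WT was -0.36 ± 0.06 (SE, 1.28-fold lower, adjusted p = 0.00265), and without that library it was -0.37 (adjusted p = 0.0128). Replicate 6 also had the highest erythroid marker sum of its group, 3343 CPM against 820 to 1824 CPM. In TG_SD the library with the highest erythroid sum, replicate 7 at 3115 CPM, held the lowest Gstz1 value, 24.8 CPM. Of all 13340 genes tested in this contrast 0.142% were called, and 0.0225% were called lower.

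The call of Gstz1 was lost without the surrogate variables, 4 covariates per region estimated from the counts to absorb unlabelled variation. Without them the log2 fold change was -0.27 (adjusted p = 0.788), and with 1 of them it was -0.37 (adjusted p = 0.0923). With all of them kept, a block for the replicate number also ended the call (-0.32, adjusted p = 0.254). The first surrogate variable was not level across the labelled groups. In hippocampus it ran from -0.0721 to 0.343 in WT_HFD and from -0.259 to 0.0793 in TG_HFD. In brainstem it ran from -0.265 to 0.0063 in WT_HFD and from -0.172 to 0.569 in TG_HFD. How far the surrogate variables also took up differences of genotype or diet was not tested. The other genotype contrasts of Gstz1 had values below 0, none of them called. Brainstem TG_HFD over WT_HFD gave -0.20 ± 0.07 (adjusted p = 0.811), hippocampus TG_SD over WT_SD gave -0.19 ± 0.06 (adjusted p = 0.303) and hippocampus TG_HFD over WT_HFD gave -0.14 ± 0.09 (adjusted p = 0.579). Without WT_SD replicate 6 of hippocampus the standard-diet value there was -0.08, and with 1 surrogate variable the high-fat value in brainstem was -0.34. Group means of Gstz1 were 39.3 ± 7.10, 38.4 ± 2.54, 32.7 ± 5.17 and 32.4 ± 3.04 CPM in brainstem. In hippocampus they were 30.5 ± 2.77, 28.5 ± 2.24, 26.7 ± 1.71 and 25.96 ± 1.5003 CPM. Both TG means lay under both WT means in each region. The interaction of genotype and diet for Gstz1 was 0.16 ± 0.09 in brainstem (adjusted p = 0.993). The difference of the standard-diet contrast between the regions was 0.08 ± 0.12 (adjusted p = 0.99997) in a joint fit of both regions. Neither difference was detected. The joint fit held no surrogate variables, so its value does not compare the regional values given above with them.

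**Figure D4:**
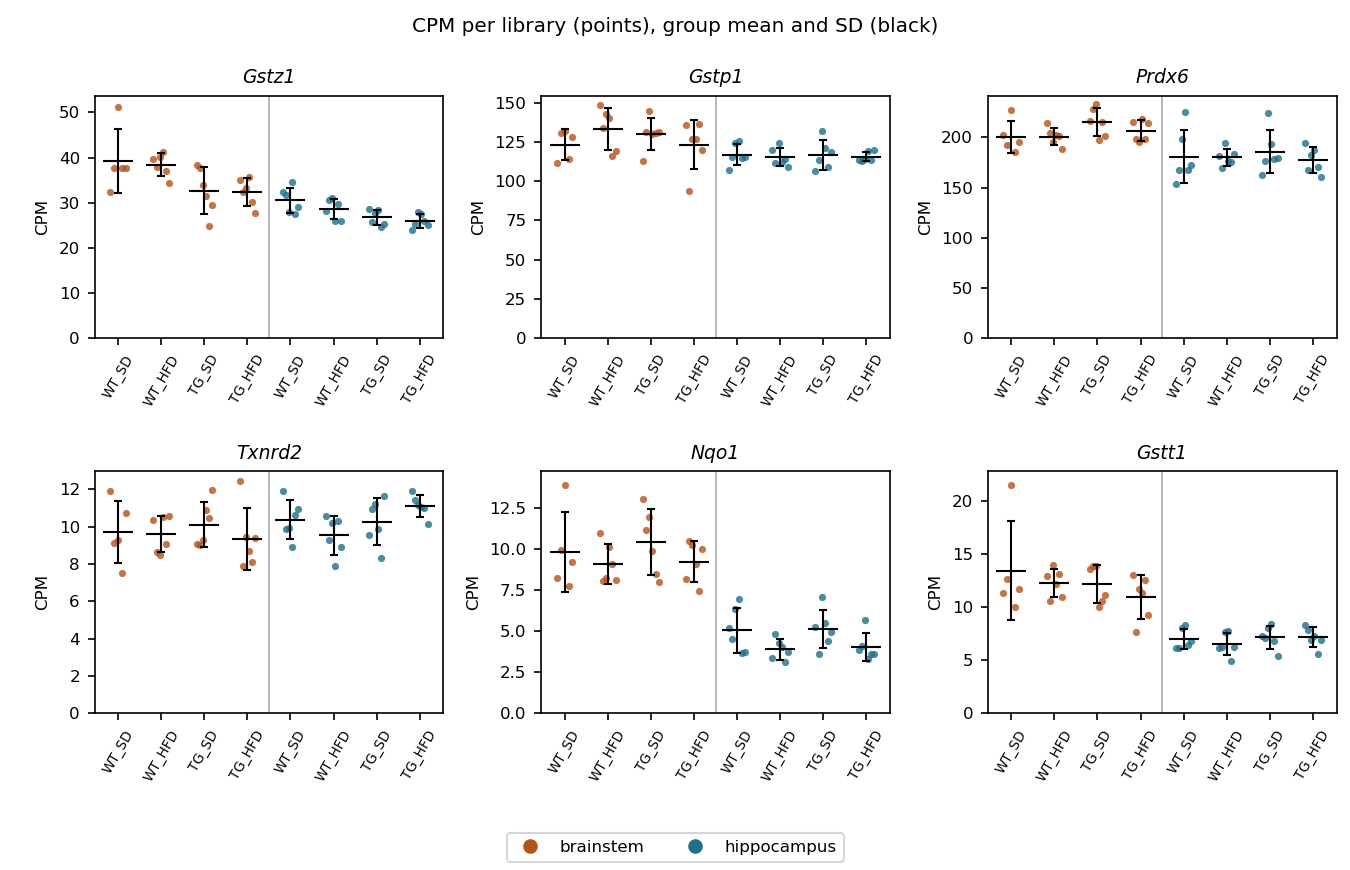
CPM of Gstz1, Gstp1, Prdx6, Txnrd2, Nqo1 and Gstt1 in every library (points; bars are group means) by group and region. Gstz1 is the member called, for brainstem TG_SD against WT_SD, and its groups overlap.

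In the same brainstem contrast 3 further members lay below an unadjusted p of 0.05, as did 10.5% of all genes. Gstp1 had a log2 fold change of 0.12 (adjusted p = 0.218), Mgst3 of -0.13 (adjusted p = 0.260) and Prdx6 of 0.09 (adjusted p = 0.412). The median over the 37 members was -0.01. DESeq2 called 1 member here, again Gstz1, and 0.12% of all genes.

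On the high-fat diet in brainstem edgeR called 0 members, with 0.0525% of all genes called. DESeq2 called 0 members and 0.0525% of all genes. With edgeR 3 members had an unadjusted p no higher than 0.05, as had 5.59% of all genes. They were Gstz1, Prdx6 with a log2 fold change of 0.13 (adjusted p = 0.800) and Sod1 with 0.10 (adjusted p = 0.884). Prdx6 was as low as 0.02 with fewer surrogate variables. Without surrogate variables edgeR called 0 members and 0.0375% of all genes. The members' median moved from 0.00 to -0.08, and 10 members had an unadjusted p no higher than 0.05, 9 of them lower in TG_HFD, as against 19.7% of all genes in either direction. Among these were Gpx4 at -0.39 (adjusted p = 0.115), which DESeq2 without surrogate variables called at -0.40 (adjusted p = 0.0295), and Prdx5 at -0.36 (adjusted p = 0.132). The share of all genes called by DESeq2 without surrogate variables is not given here. Along with the shift of the median, log2 fold changes followed GC content across genes (rho = -0.53 over the 37 members and -0.58 over 13319 genes without surrogate variables, 0.16 and 0.00 with them). The genes share the libraries, and the part of GC content in the values was not tested.

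In hippocampus, TG_SD against WT_SD had 0 members called by edgeR, with 0.0904% of all genes called. Below an unadjusted p of 0.05 lay 5 members, all lower in TG. Of all 13272 genes tested 9.08% lay below it in either direction, and 562 genes did so with a lower value in TG. DESeq2 called 0 members and 0.105% of all genes. The lowest p after Gstz1 belonged to Prdx3 with a log2 fold change of -0.11 (adjusted p = 0.417) and Gstm1 with -0.09 (adjusted p = 0.494). Prdx1 (-0.08) and Srxn1 (-0.10) completed the 5, none with a change as large as the call requires. Without WT_SD replicate 6 the value of Prdx3 was -0.07. The median over the 36 members tested was -0.02.

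In hippocampus on the high-fat diet, the contrast with the most calls over all genes (30, or 0.226%), edgeR called 0 members, and so did DESeq2 with 0.226% of all genes called. With edgeR 5 members lay below an unadjusted p of 0.05, as did 11.3% of all genes. Txnrd2 spanned 7.87 to 10.6 CPM in WT_HFD (median 9.75) and 10.1 to 11.9 CPM in TG_HFD (median 11.1), which overlapped. Its log2 fold change was 0.36 ± 0.12 (adjusted p = 0.223). Hmox1 spanned 4.38 to 6.06 CPM in WT_HFD (median 4.86) and 3.003 to 4.59 CPM in TG_HFD (median 4.19), with a log2 fold change of -0.47 ± 0.18 (adjusted p = 0.280). Gstm1 (-0.14), Prdx6 (-0.12) and Mgst3 (-0.17) had adjusted p-values of 0.274, 0.291 and 0.384. The value of Gstm1 shrank by over 1.5 times without TG_SD replicate 5, WT_SD replicate 6 or WT_SD replicate 8, to -0.05 at the least, and to -0.0013 with a GC correction in place of surrogate variables, and that of Txnrd2 fell to 0.23 without surrogate variables.

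Without surrogate variables 3.88% of all genes were called in this contrast and again 0 members, of which 5 lay below an unadjusted p of 0.05, as did 21.9% of all genes.

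Among the members, 3 cases of groups that did not overlap were seen over the 8 contrasts of genotype or diet. In hippocampus on the high-fat diet, 2 members lay apart, lower in TG, with 4.27% of all genes lying apart in either direction. Keap1 spanned 40.1 to 45.6 CPM in WT_HFD and 35.3 to 37.6 CPM in TG_HFD, and Prdx5 spanned 133.1 to 166.7 CPM and 114.4 to 132.9 CPM. In the fit with surrogate variables their log2 fold changes were -0.04 for Keap1 and -0.03 for Prdx5, far smaller than these levels show. Without them Keap1 had -0.22 (adjusted p = 0.0249), under the fold required for a call, and Prdx5 had -0.20 (adjusted p = 0.0962). In this contrast too the log2 fold changes followed GC content without surrogate variables (rho = -0.44 over 36 members and -0.60 over 13254 genes) and no longer did so with them (0.03 and 0.01).

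The diet contrasts called no member. For WT_HFD against WT_SD edgeR called 0 members and 0% of all genes in brainstem, and likewise 0 members and 0% in hippocampus. DESeq2 called 0 members in either region, with 0.0075% of all genes called in brainstem and 0.0226% in hippocampus. With edgeR 0 members reached an unadjusted p of 0.05 in either region, although 5.43% of all genes did in brainstem and 6.4% in hippocampus. The members of lowest p were Gstt1 (log2 fold change -0.23) and Cat (-0.07) in brainstem, and Gss (-0.17) and Txnrd2 (-0.19) in hippocampus. These small values moved with single libraries, Gstt1 to -0.10 without WT_SD replicate 6, Cat to -0.04 without WT_HFD replicate 2 and Txnrd2 to -0.12 without WT_SD replicate 3. Other settings took Gstt1 as far as -0.04 (1 surrogate variable), Cat to -0.0019 (a replicate block without surrogate variables), Gss to -0.09 (a GC correction in place of surrogate variables) and Txnrd2 to -0.11 (2 surrogate variables). Gpx3 in brainstem spanned 24.5 to 26.9 CPM in WT_SD and 27.5 to 33.0 CPM in WT_HFD, the 1 member whose groups lay apart, with 0.397% of all genes doing so, but its fitted log2 fold change was 0.13 with an unadjusted p of 0.179. In the other contrasts 0 members lay apart, with 0.547%, 0.682% and 0.187% of all genes lying apart in brainstem (TG_SD against WT_SD, TG_HFD against WT_HFD, TG_HFD against TG_SD) and 0.234%, 0.512% and 0.0452% in hippocampus (TG_SD against WT_SD, WT_HFD against WT_SD, TG_HFD against TG_SD).

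For TG_HFD against TG_SD edgeR called 0 members in brainstem, with 0.0075% of all genes called, and 0 in hippocampus, with 0% called. DESeq2 called 0 members in either region, with 0% of all genes called in brainstem and 0.0151% in hippocampus. Below an unadjusted p of 0.05 lay 1 member in brainstem, with 6.91% of all genes. It was Gstz1 with a log2 fold change of 0.13 (adjusted p = 0.700), a value that was 0.08 without TG_SD replicate 7 and turned below 0 without surrogate variables. In hippocampus 2 members lay below it, with 7.08% of all genes. Nqo1 spanned 3.63 to 7.07 CPM in TG_SD (median 5.08) and 3.29 to 5.66 CPM in TG_HFD (median 3.76), which overlapped, with a log2 fold change of -0.34 ± 0.13 (adjusted p = 0.551). Prdx2 had a log2 fold change of 0.07 (adjusted p = 0.556). In the interaction of genotype and diet edgeR called 0 members in either region, with 0.0075% of all genes called in brainstem and 0% in hippocampus. DESeq2 called 0 members too, with 0.0075% and 0.00753% of all genes. Below an unadjusted p of 0.05 lay 0 members in brainstem (4.83% of all genes) and 1 in hippocampus (5.98%), Txnrd2 with 0.30 ± 0.14 (adjusted p = 0.802).

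**Figure D5:**
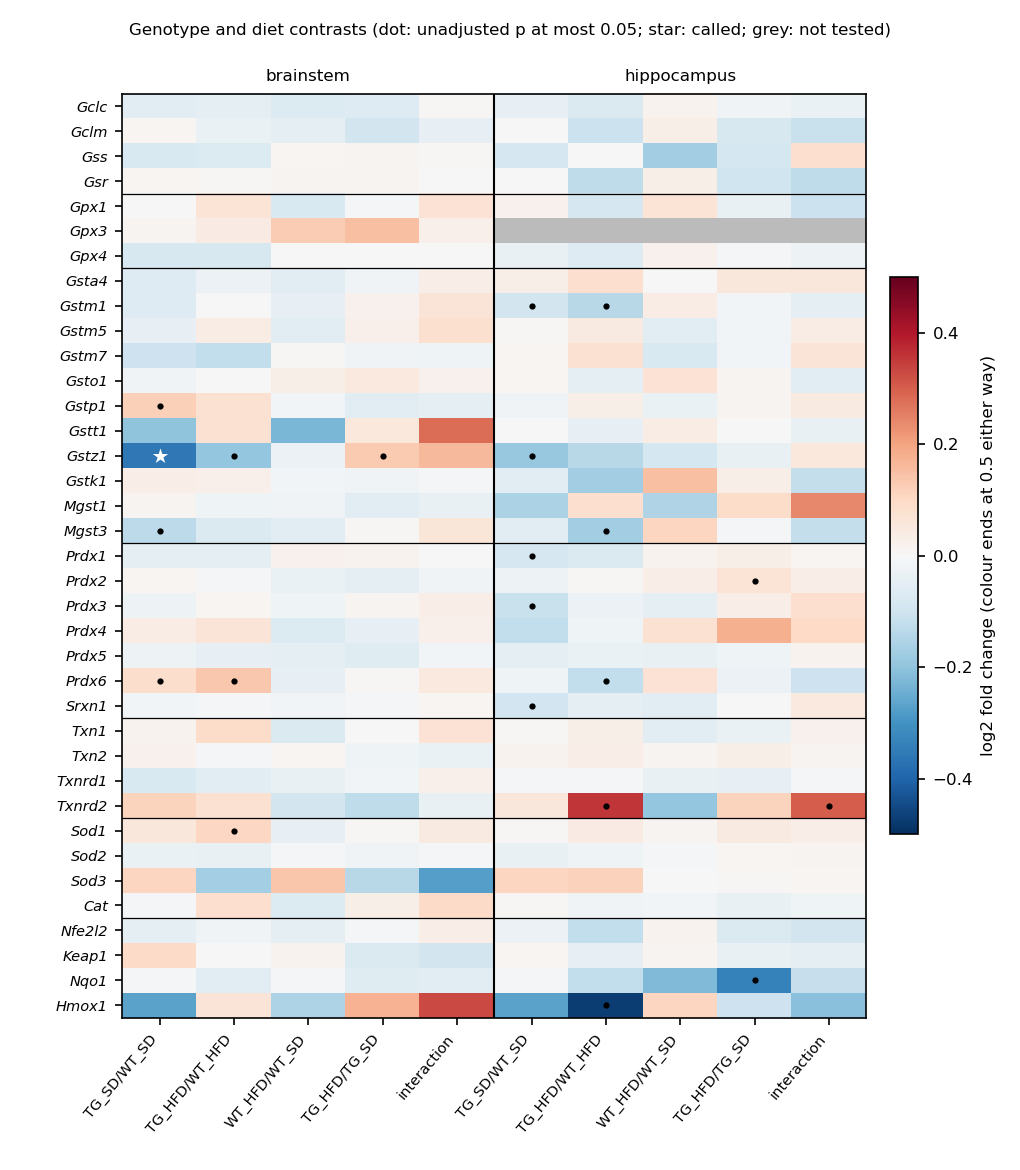
Log2 fold changes of the 37 members in the 5 contrasts of each region, as a colour scale centred on 0, with a dot where the unadjusted p is at most 0.05 and a star at the 1 call. Gstz1 in brainstem TG_SD against WT_SD carries the star, and grey marks Gpx3, not tested in hippocampus.

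Whether genotype and diet act differently in the regions was tested in the joint fit of all 47 libraries, without surrogate variables. Both regions were taken from the mice of each group, but the labels do not tie libraries to mice, so this fit treats libraries of a shared mouse as independent, and its tests, the 0 calls included, rest on that. Of the 37 members 0 were called by edgeR or DESeq2 in any of the 5 regional differences. With either tool 0.00743% of all genes were called for each of the genotype contrasts and 0% for the other three. Below an unadjusted p of 0.05 edgeR placed 1 member for the genotype contrast on the standard diet (2.76% of all genes), 4 for that on the high-fat diet (5.65%), 0 for the diet contrast in WT (2.28%), 2 for that in TG (3.3%) and 1 for the interaction (3.38%).

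Other genes of these pathways, a list of 80 that holds no member, were read beside the members. In the joint fit 65 were tested, of which 32 were called lower and 7 higher in hippocampus, with a median log2 fold change of -0.29. Of all genes, 31% were called lower and 29.2% higher. Largest among those lower were the theta-class transferase Gstt3 at -1.56 (adjusted p = 1.06e-19), Selenop, the secreted carrier of selenium, at -1.43 (474 ± 52.1 CPM in brainstem and 176 ± 17.3 CPM in hippocampus, SD) and the biliverdin reductase Blvra at -1.27. Largest among those higher were Selenow, a small selenoprotein, at 1.38 (169 ± 24.0 and 438 ± 41.4 CPM), the methionine sulfoxide reductase Msra at 1.22, and Slc1a1, the neuronal glutamate and cysteine transporter, at 1.17. In the within-region contrasts edgeR called 0 genes of this list, with 0% to 0.226% of all genes called. Between 1 and 7 of its 66 genes tested in brainstem or 64 in hippocampus lay below an unadjusted p of 0.05 in a contrast. Of all genes 4.83% to 11.3% did so.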

How the data were processed

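Poly(A) RNA of brainstem and hippocampus was sequenced single-end, and per the labels the authors used FastQC 0.11.9, STAR 2.7.9a and DESeq2 1.32.0. The genome was mouse with the transgene added, and the counting tool and its strand setting are not given in the sources used here. The authors deposited raw counts per gene, 1 table per region, of which 23 and 24 columns were used and 0 left out. The level of the transgene is not reported here.

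The members and lists were chosen with earlier results of these data known. Counts of each region were fitted with edgeR 4.0.16 (quasi-likelihood, TMM scaling, R 4.3.3) for genes whose mean count reached 50, with all 4 groups and 4 surrogate variables (sva 3.50.0). Both regions entered a joint fit of 8 groups without surrogate variables. P-values were Benjamini-Hochberg adjusted over all genes tested, and a call needed at most 0.05 and a log2 fold change of at least 0.3. CPM used TMM factors over all 47 libraries, and RPKM divided CPM by merged exon length. Replicates are separate mice of a group, and 0 pairs of libraries were identical. Libraries of equal replicate number in different groups of a region were compared by their deviations from the group means. The median correlation was 0.03 in brainstem (at most 0.36, over 0.1 in 9 of 26 pairs). In hippocampus it was 0.06 (at most 0.38, over 0.1 in 15 of 36 pairs). Unequal numbers and libraries across regions were not compared, so this check cannot tell whether replicate numbers pair libraries. Named with the value of every group were members called within a region, the 2 of lowest p per contrast, the 4 most extreme regional changes each way and the 3 highest and lowest RPKM per region. On simulated counts for brainstem TG_HFD against WT_HFD (13340 genes), 79% of genes changed by 0.5 on the log2 scale and 100% of those changed by 1 were recovered. There were 7 false calls. The simulated counts held no unlabelled variation, and their fit used 1 surrogate variable where the real fit used 4. These shares therefore do not give the sensitivity of the real fit. Alternatives were DESeq2 1.42.0, RLE scaling, other filters, other numbers of surrogate variables, GC or length correction, a replicate block and leaving out libraries.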

Additional observations from a re-analysis of the deposited data

Results flagged for a closer look

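Of 176 groups of libraries examined for the 22 members named with values, 11 held 1 library far from the rest of its group, and chance alone sets apart about 1 group in 20. Brainstem WT_SD replicate 6 accounted for 4 of them. It was high in the transferases Gstm1 (240.2 CPM, others 163 to 181), Gstt1 (21.5 CPM, others 9.98 to 12.6) and Gstz1 (51.3 CPM, others 32.3 to 37.8), and low in Cat (78.1 CPM, others 85.3 to 86.5). Its erythroid marker sum was 3343 CPM, against 820 to 1824 CPM in the others, and the part of this in the values was not tested.

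Elsewhere in brainstem, Gclm read 111 CPM in TG_HFD replicate 3 (others 90.1 to 96.3), and Prdx3 read 92.3 CPM in TG_SD replicate 2 (others 79.5 to 83.0). Txnrd2 read 12.5 CPM in brainstem TG_HFD replicate 1 (others 7.89 to 9.46), and Cat read 94.4 CPM in brainstem TG_SD replicate 6 (others 75.6 to 80.5). In hippocampus, Gss read 15.6 CPM in WT_HFD replicate 3 (others 12.3 to 13.4), and Cat read 59.3 CPM in WT_HFD replicate 5 (others 48.0 to 52.2). Nqo1 read 5.66 CPM in hippocampus TG_HFD replicate 5 (others 3.29 to 4.13).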

How the results depend on the processing

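The regional count of 27 members called stayed between 24 and 27 under other tools, scalings and filters that kept the fold threshold, and between 26 and 27 with each library left out in turn. The shares of all genes called in these refits are not given here. For brainstem TG_SD against WT_SD the count of 1 fell to 0 with 0 or 1 surrogate variables, with DESeq2, a GC or a length correction without surrogate variables, with only the 2 groups, and with a replicate block with or without surrogate variables (Gstz1 -0.32, adjusted p = 0.254, and -0.30, adjusted p = 0.962). It was 1 with each library left out, where the adjusted p was 0.000705 to 0.0156. For brainstem TG_HFD against WT_HFD DESeq2 without surrogate variables called 1 member, Gpx4 (-0.40, adjusted p = 0.0295), the share of all genes not given here. The other counts of members within regions and of regional differences stayed at 0 with each library left out. Gstz1 in brainstem TG_HFD against TG_SD turned from 0.13 to -0.0131 without surrogate variables, -0.0124 with DESeq2 without them, -0.0050 with the GC and -0.0062 with the length correction, and -0.0153 with only the 2 groups. Between regions Gstm1 turned to -0.0244 with the GC correction and -0.0193 without the choroid-rich libraries, and Txnrd2 to -0.0167 with the GC correction. Of 2818 recomputed values of single members 2769 kept direction and call, 8 reversed and 41 lost the call. Within-region calls depend on the surrogate variables, and regional changes near 0.3 on the log2 scale (Txnrd1, Gstz1, Sod2) or reduced to it (Hmox1) lost their call under some alternatives. The cause was not tested. With 5 or 6 libraries a group, and with colony and genotype joined, small changes of members may have been missed.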
